A study of Mus musculus with 30 samples.

Results

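To see how neighbouring mitochondrial tRNAs read from opposite strands differ as sources of small RNA, the fragments of mt-Ti, mt-Tq and mt-Tm, the mouse mitochondrial tRNAs for isoleucine, glutamine and methionine, were examined in cortex. These are 3 of the 22 mitochondrial tRNAs and 3 of the 6124 RNA genes to which the reads were matched. The members were fixed by position, since their genes stand side by side between the mRNA genes mt-Nd1 and mt-Nd2. They were chosen with earlier results of these data known. Every read that matched 1 of the 3 tRNAs exactly over its whole length, in sense and with CCA added to the tRNA, was counted by its first base, last base and length. In PANDORA-seq 837713 reads were found this way, in 623 distinct sequences of mt-Ti, 976 of mt-Tq and 877 of mt-Tm. In traditional-seq 68662 reads were found, in 430, 535 and 430 distinct sequences. None of these sequences matched another RNA of the reference, and only sequences of at most 18 nt also occurred inside other annotated transcripts, with at most 1.24% of a tRNA's reads. Nuclear DNA outside annotated transcripts, which can hold copies of mitochondrial tRNA genes, was not searched here.

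The libraries come from cortex of mice aged 6 months with a C57BL/6J background. The AD group is 5xFAD, a model with transgenes for mutated human amyloid precursor protein and presenilin, which are driven in neurons by the Thy1 promoter. Per the study's methods these mice were hemizygous, the WT mice were their littermates, both sexes were used and the tissue was prefrontal. The labels call the libraries biological replicates and do not give the sex of single mice. In both protocols the small RNA was cut from a gel. For traditional-seq (7 WT and 7 AD libraries) it went into the library without enzyme treatment. For PANDORA-seq (8 WT and 8 AD libraries) it was first treated with T4 polynucleotide kinase, which converts RNA ends into forms that adapters can join, and with AlkB, which removes some methyl groups that stop reverse transcriptase. Library totals were 54926347 to 105876141 reads in PANDORA-seq and 9370669 to 17053412 reads in traditional-seq, and 14 libraries of each protocol share a file-name code whose meaning is not stated. PANDORA-seq reads ran from 15 to 45 nt and traditional-seq reads from 15 to 42 nt. The share of all reads that were 43 to 45 nt long was 15.5% ± 3.19 (SD, n = 8; 11.3 to 21.5%) in WT and 4.95% ± 2.90 (n = 8; 2.13 to 10.7%) in AD, a difference of the whole libraries that moves with every result on long fragments below and whose part in them is given as a second scaling of the same counts. The 8 microRNA hairpins of the neuron marker list were all detected in both protocols, in PANDORA-seq at a summed 2044 to 6308 RPM (reads divided by the library total and scaled to 1e+06 reads) in WT and 1670 to 6881 RPM in AD. The leukocyte and microglia list was at 0.858 to 1.70 RPM in WT and 0.726 to 1.62 RPM in AD in PANDORA-seq (2 of 3 hairpins detected) and at 5.45 to 31.3 RPM in WT and 13.4 to 59.5 RPM in AD in traditional-seq (3 of 3).

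As background, mammalian mitochondrial DNA is transcribed from both strands into long RNAs, and tRNAs lie between the mRNAs and rRNAs as punctuation. Enzymes cut each tRNA out at its 5′ and 3′ ends, and a nucleotidyltransferase adds the bases C, C and A, which the genome does not encode and which are needed to carry an amino acid. Most mitochondrial tRNAs are read in the direction of the mRNAs, but mt-Tq belongs to the smaller group read in the other direction and called light-strand-coded. Fragments of tRNAs are often divided into those from the 5′ end, those from the 3′ end and internal ones, and fragments made by cuts in the anticodon loop have been described in many cells. Glutamine, isoleucine and methionine tRNAs read their codons with these loops, and mt-Tm serves both the start of translation and its elongation.

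On the annotation used (GENCODE M21, genome build GRCm38) mt-Ti lies at chrM:3706-3774 on the plus strand, mt-Tq at chrM:3772-3842 on the minus strand and mt-Tm at chrM:3845-3913 on the plus strand. The genes mt-Ti and mt-Tq overlap by 3 bases on opposite strands, mt-Tq and mt-Tm are 2 bases apart, mt-Nd1 overlaps mt-Ti by 2 bases and mt-Nd2 begins right after mt-Tm. The encoded tRNAs are 69, 71 and 69 nt long and reach 72, 74 and 72 nt with CCA. The 3 RNAs are shown whole because all fragment positions below are counted on them, from 1 at the 5′ end, with the anticodon and the added CCA in capitals:
mt-Ti: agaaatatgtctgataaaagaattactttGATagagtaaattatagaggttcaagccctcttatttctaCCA
mt-Tq: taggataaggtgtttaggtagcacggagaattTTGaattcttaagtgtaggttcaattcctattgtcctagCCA
mt-Tm: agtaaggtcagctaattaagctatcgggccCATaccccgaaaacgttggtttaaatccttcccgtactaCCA

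The anticodons were located by a stem of 5 pairs around a loop of 7 bases, at bases 30 to 32 of mt-Ti, 33 to 35 of mt-Tq and 31 to 33 of mt-Tm. G and C make up 29.2% of mt-Ti, 37.8% of mt-Tq and 45.8% of mt-Tm. A 5′ fragment is one that begins at base 1, 2 or 3, a 3′ fragment one that begins later and reaches at least the last encoded base, and the rest are internal.

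The fragments that carry the comparisons below are the long 3′ fragments of mt-Tq, the most abundant 3′ fragment of mt-Tm in PANDORA-seq, a long 5′ fragment of mt-Tq, and the short fragments of mt-Ti and mt-Tq that end with the anticodon and were most abundant among internal fragments in traditional-seq, with the same letters in capitals:
mt-Tq 29 to 73: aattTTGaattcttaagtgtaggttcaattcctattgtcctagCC
mt-Tq 30 to 73: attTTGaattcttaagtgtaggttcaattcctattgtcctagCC
mt-Tm 32 to 70: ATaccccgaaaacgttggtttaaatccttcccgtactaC
mt-Tq 1 to 45: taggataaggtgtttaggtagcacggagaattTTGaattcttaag
mt-Ti 18 to 32: aagaattactttGAT
mt-Tq 12 to 35: gtttaggtagcacggagaattTTG

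The level of the 3 tRNAs in PANDORA-seq followed the order mt-Tq, mt-Tm, mt-Ti. In WT mt-Tq stood at 238 RPM in the lowest library, 675 RPM in the median and 845 RPM in the highest, and in AD at 75.3, 291 and 453 RPM. The corresponding values of mt-Tm were 144, 172 and 243 RPM in WT and 76.2, 146 and 352 RPM in AD. For mt-Ti they were 7.81, 13.1 and 15.4 RPM in WT and 2.51, 9.27 and 19.1 RPM in AD. AD replicate 3 was the lowest library for all 3 tRNAs, and the genotypes overlapped for all 3 tRNAs. Compared within each library and per base of the tRNA, mt-Tq was 35.3-fold above mt-Ti as a geometric mean and higher in 16 of 16 libraries (two-sided exact sign-flip permutation test, adjusted p = 7.75e-05 over 462 ratios between mitochondrial tRNAs). The level of mt-Tm was 15.7-fold above that of mt-Ti in 16 of 16 libraries (exact permutation, adjusted p = 7.75e-05), and mt-Tq was 2.25-fold above mt-Tm in 14 of 16 (exact permutation, adjusted p = 0.000152). Of the pairs that the 22 mitochondrial tRNAs form 215 differed in this way in PANDORA-seq and 206 in traditional-seq. By mean RPM per base over both genotypes mt-Tq ranked 5 of the 22 mitochondrial tRNAs, mt-Tm ranked 9 and mt-Ti ranked 19. The ranks were 5, 9 and 19 in WT and 6, 9 and 20 in AD, where mt-Tp (5.35 RPM per base) stood above mt-Tq (3.76), while in WT it stood below (3.61 against 8.26).

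In traditional-seq the 3 tRNAs lay closer together. There mt-Tq stood at 206 RPM ± 73.4 (SD, n = 7) in WT and 218 ± 41.9 in AD, mt-Tm at 127 ± 104 and 75.8 ± 35.6, and mt-Ti at 101 ± 23.1 and 98.6 ± 19.6. Per base, mt-Tq was 2.03-fold above mt-Ti in 14 of 14 libraries (exact permutation, adjusted p = 0.000152) and 2.43-fold above mt-Tm in 12 of 14 (exact permutation, adjusted p = 0.000574). The levels of mt-Tm and mt-Ti did not differ beyond their spread, with mt-Tm higher in 6 of 14 libraries and a mean log2 ratio of -0.26 ± 0.93 (SD; exact permutation, adjusted p = 0.33). The ranks were 12, 14 and 15 of 22, and in AD alone mt-Tm and mt-Ti changed places.

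**Figure D1:**
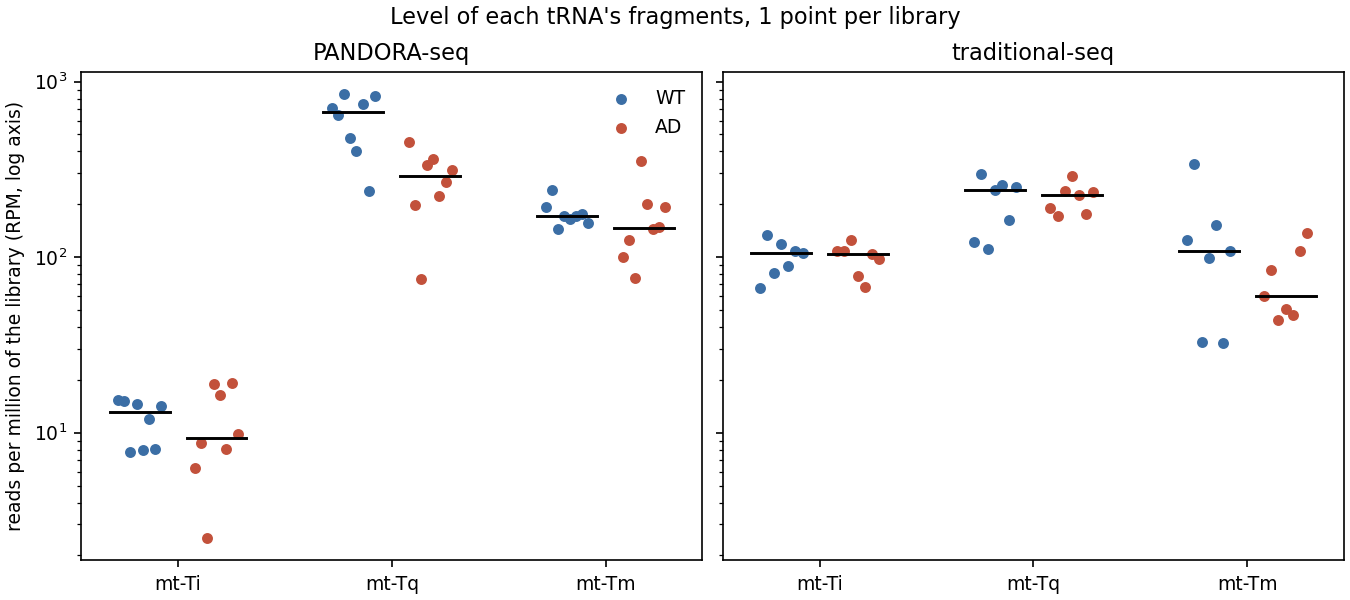
RPM (log axis) of reads that matched mt-Ti, mt-Tq or mt-Tm, 1 point per library in blue for WT and red for AD, with a black bar at the median; the left panel is PANDORA-seq and the right panel traditional-seq. In PANDORA-seq mt-Ti lies far below the others (2.51 to 19.1 RPM) and the mt-Tq points of AD reach lower than those of WT, while in traditional-seq the 3 tRNAs lie near one another and the genotypes overlap.

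The protocols were compared over the lengths both contain, 15 to 42 nt, with library totals of the same window. These tests treat the 30 libraries as independent, and whether the shared codes mark the same mice is not stated. Reads of mt-Ti were scarcer in PANDORA-seq, with geometric means of 9.89 RPM over 16 libraries against 97.7 RPM over 14, a log2 difference of -3.30 (permutation test with 100000 shuffles, adjusted p = 1.39e-05 over 319 comparisons). The 2 protocols did not overlap for mt-Ti, whose log2 RPM ran from 1.33 to 4.29 in PANDORA-seq and from 6.07 to 7.07 in traditional-seq. Reads of mt-Tm were 2.18-fold more abundant in PANDORA-seq (178 against 81.7 RPM, adjusted p = 0.000519, permutation). For mt-Tq the difference was 0.41 on the log2 scale (270.8 against 203.9 RPM) and did not pass (adjusted p = 0.0609, permutation). Within WT libraries alone it was 0.71 and within AD libraries alone 0.11. It passed over all lengths, at 0.89 (adjusted p = 0.00325, permutation), and with all mitochondrial tRNA reads as the denominator, at 1.81 (adjusted p = 1.38e-05, permutation). Of the 22 mitochondrial tRNAs 14 were lower and 4 higher in PANDORA-seq by this test, so the fall of mt-Ti goes with the majority and the rise of mt-Tm with the minority. The ratio of mt-Tq to mt-Ti rose by 3.71 on the log2 scale from traditional-seq to PANDORA-seq, and that of mt-Tm to mt-Ti by 4.43 (both adjusted p = 1.39e-05, permutation). The ratio of mt-Tq to mt-Tm fell from 2.43 to 1.48, a log2 difference of -0.72 (adjusted p = 0.0129, permutation). RPM are shares of a library, and 6.60 to 16.4% of PANDORA-seq reads but 41.9 to 56.6% of traditional-seq reads matched the reference RNAs, so only these ratios do not depend on what else a library holds.

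The protocols also saw different pieces of the same tRNAs. Reads of 15 to 30 nt made up 80.69 to 98.34% of each traditional-seq library but 20.02 to 30.62% of each PANDORA-seq library. The shared window thus did not make read lengths alike. How far length goes with the fragment types and end positions given for each protocol was not tested. In the shared window 76.6% ± 10.7 (SD, n = 14) of mt-Ti reads, 69.5% ± 10.4 of mt-Tq reads and 62.7% ± 16.2 of mt-Tm reads were internal in traditional-seq. In PANDORA-seq these shares were 38.4% ± 9.36 (n = 16), 35.5% ± 8.28 and 21.3% ± 5.46, lower for all 3 (adjusted p = 1.39e-05 each, permutation). What took their place within this window differed by tRNA. For mt-Tq it was mainly 5′ fragments, which made up 48.3% ± 7.96 in PANDORA-seq against 20.2% ± 9.83 (adjusted p = 1.39e-05, permutation), while 3′ fragments of 15 to 42 nt made up 16.3% against 10.2% (adjusted p = 0.0114, permutation). For mt-Tm it was 3′ fragments, at 75.0% ± 4.86 against 30.6% ± 15.8, and 5′ fragments fell from 6.67% to 3.69% (adjusted p = 1.39e-05 and 0.00662, permutation). For mt-Ti 3′ fragments rose from 2.15% ± 1.20 to 30.7% ± 12.3, and 5′ fragments from 21.2% to 30.9% (adjusted p = 1.39e-05 and 0.0189, permutation). Over all PANDORA-seq lengths, 3′ fragments made up 40.8% of mt-Tq reads and 5′ fragments 34.4%. In WT these shares were 60.0% and 24.3%, and in AD 21.7% and 44.5%. The 3′ share of mt-Tm was 74.6% over all lengths. The contrast between mt-Tq and mt-Tm in what replaced internal fragments thus depends on the length cut.

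**Figure D2:**
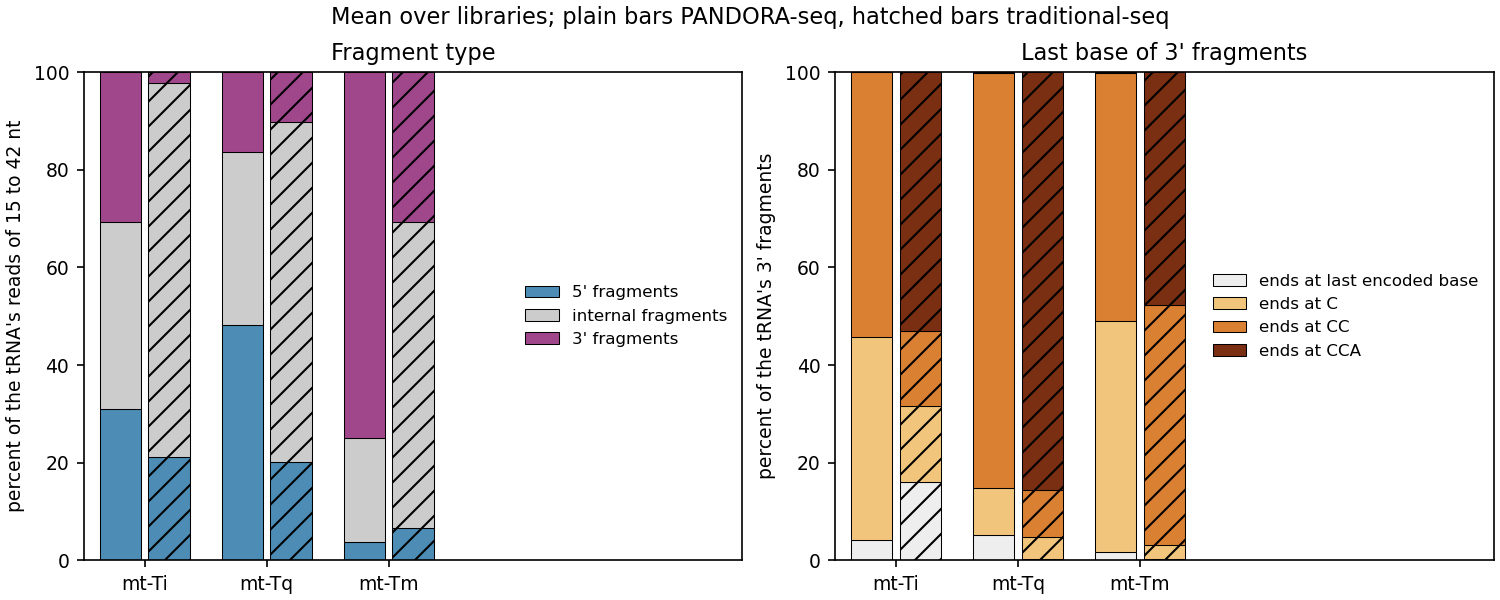
Left, mean percent of each tRNA's reads of 15 to 42 nt that were 5′, internal or 3′ fragments; right, mean percent of its 3′ fragments that ended at the last encoded base or after C, CC or CCA; plain bars are PANDORA-seq (16 libraries) and hatched bars traditional-seq (14 libraries). Internal fragments are the largest part of all 3 hatched bars, and complete CCA ends, 85.5% of mt-Tq 3′ fragments in traditional-seq, hardly appear in the plain bars.

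The single positions showed the same contrast, again without matching of read length. In traditional-seq 59.2% ± 11.3 (SD, n = 14; 43.7 to 76.4%) of mt-Ti reads ended at base 32, the last base of the anticodon, against 3.47% in PANDORA-seq. This was the highest share among the 18 mitochondrial tRNAs with enough reads and a located anticodon, whose other 15 members had a median of 0.949% (0.000471 to 54.6%). Counting ends within 1 base of that position, mt-Ti reached 73.2% ± 8.41 and ranked 2, below mt-Ty at 88.5% ± 9.51. For mt-Tq 26.9% ± 10.98 (7.98 to 43.3%) of reads in traditional-seq ended at the last anticodon base, 35, and for mt-Tm 12.2% ± 5.50 (4.82 to 21.8%) at base 33, ranks 6 and 7 of 18. In PANDORA-seq these shares were 0.567% and 0.157%. The PANDORA-seq shares here include reads of 43 to 45 nt. At the last anticodon base 13 of the 14 other tRNAs measured in both protocols also had the lower share in PANDORA-seq, where the median of the other 15 was 0.0622%. Within 1 base of it mt-Ti, mt-Tq and mt-Tm had 9.035%, 6.71% and 4.04% in PANDORA-seq, and mt-Tq and mt-Tm had 33.3% and 17% in traditional-seq. By this measure 6 of the 14 others were higher and 8 lower in PANDORA-seq. The fragment mt-Ti 18 to 32 printed above stood at 13.5 RPM in WT and 11.9 RPM in AD in traditional-seq, and at means of 0.00540 and 0.00270 RPM in PANDORA-seq. The fragment mt-Tq 12 to 35 stood at 7.51 and 12.3 RPM in traditional-seq and at 0.0608 and 0.0760 RPM in PANDORA-seq. Neither differed between the genotypes in traditional-seq (edgeR, adjusted p = 0.9999 each, log2 fold changes of -0.25 and 0.84).

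Fragments that begin in or near the anticodon loop had higher shares in PANDORA-seq, whose values here include the reads of 43 to 45 nt that traditional-seq lacks. Counted were reads that began in the loop, at the last 2 stem bases before it or at the base after it. They made up 66.0% ± 7.33 (SD, n = 16) of mt-Tm, 50.4% ± 20.8 of mt-Tq and 29.2% ± 12.1 of mt-Ti in PANDORA-seq, against 18.6%, 13.4% and 2.98% in traditional-seq. The other 15 mitochondrial tRNAs with enough reads had a median of 27.6% (0.868 to 86.7%) in PANDORA-seq and 12.8% (0.143 to 73.3%) in traditional-seq, and mt-Tm, mt-Tq and mt-Ti ranked 2, 8 and 10 of 18 in PANDORA-seq. Of the 14 others measured in both protocols 12 had the higher share in PANDORA-seq as well, and mt-Tr and mt-Tc had the lower one. The mean for mt-Tq joins 66.5% in WT and 34.3% in AD, and that for mt-Ti joins 37.7% and 20.8%, while mt-Tm was at 68.1% and 63.9%. For mt-Tm the leading first bases were 32, inside the anticodon (26.0% of reads), and 34, right after it (19.1%). For mt-Tq, over both genotypes, they were base 1 (32.2%) and then 30, 29 and 31, just before the anticodon (15.2%, 13.4% and 11.8%). Bases 29 and 30 lie in the stem, and the loop runs from base 31 to 37. No read is longer than 45 nt, so reads that end at base 73 of mt-Tq cannot begin before base 29. In WT alone base 1 (22.6% ± 8.52, SD, n = 8) and bases 29 (22.5% ± 5.70) and 30 (21.7% ± 4.77) lay within their spread, while in AD base 1 made up 41.8% ± 9.07 (n = 8) and the next, base 31, 10.1% ± 5.996. For mt-Ti base 1 was first in both genotypes (21.4% in WT and 32.1% in AD), followed by 26 in WT (14.2%) and by 49 in AD (7.54%). Base 26 of mt-Ti also lies in the stem, before the loop at bases 28 to 34. The leading single 3′ fragment of mt-Tm, 32 to 70, reached 8.85, 19.4 and 71.03 RPM in the lowest, median and highest WT library and 8.79, 17.3 and 78.4 RPM in AD. Its genotypes overlapped over almost the whole range, and its log2 fold change of -0.25 did not pass (edgeR, adjusted p = 0.839).

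**Figure D3:**
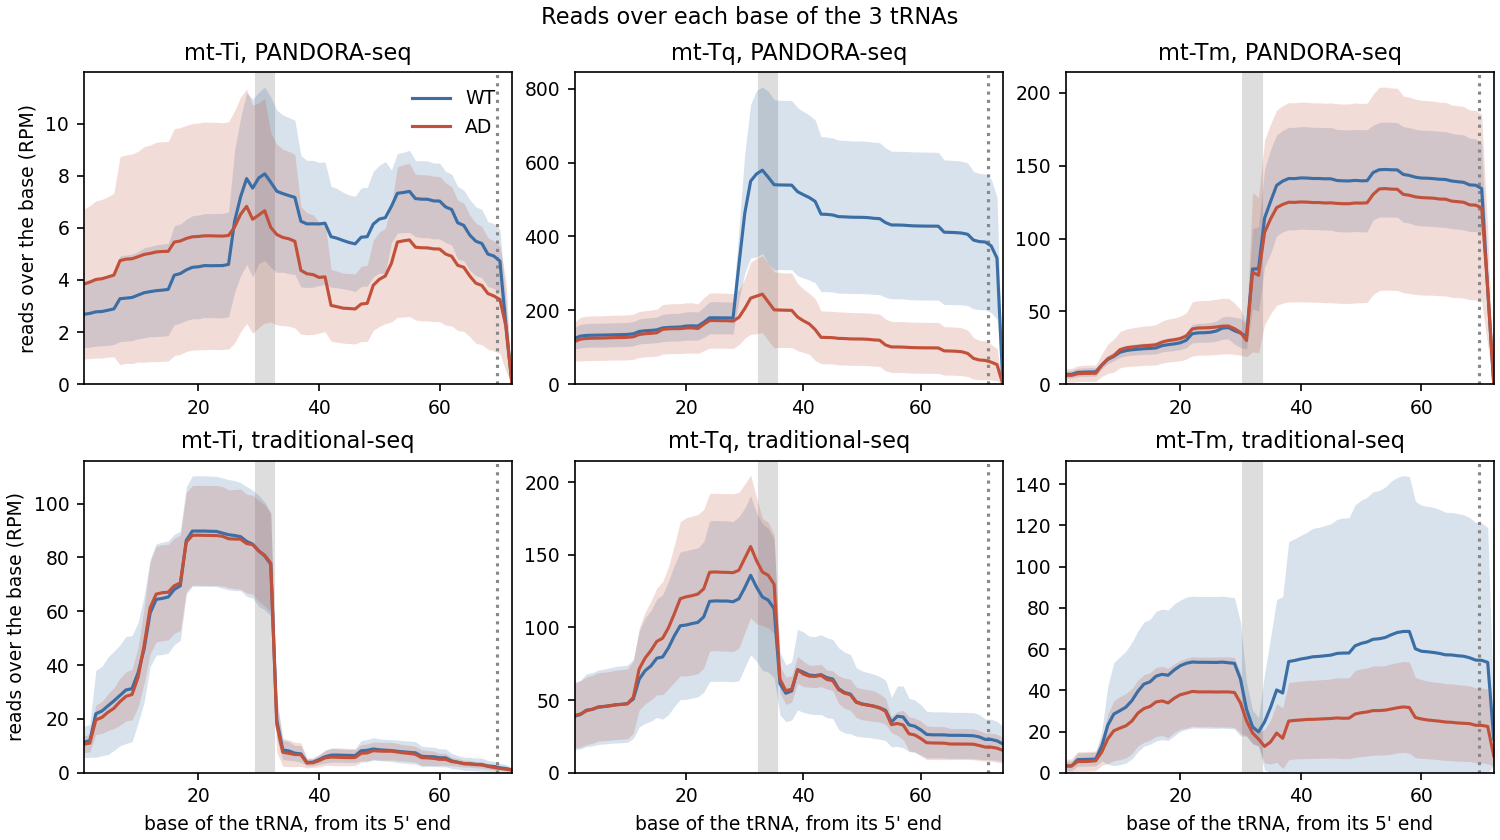
Mean number of reads over each base of the tRNA in RPM, in blue for WT and red for AD, with bands of 1 SD, for the 3 tRNAs (columns) in PANDORA-seq (upper row) and traditional-seq (lower row); the shaded stretch marks the anticodon. In the upper row mt-Tq coverage steps up just before the anticodon and the step is lower in AD (579 RPM in WT and 244 RPM in AD at base 33), whereas mt-Ti coverage in the lower row drops after the anticodon. The longest reads are 45 nt, so those that end at base 73 of mt-Tq cannot begin before base 29.

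The complete CCA end was common in traditional-seq and rare in PANDORA-seq. Of mt-Tq 3′ fragments 85.5% ± 5.13 (SD, n = 14; 76.1 to 91.9%) ended in complete CCA in traditional-seq, against 0.170% ± 0.127 (n = 16; 0 to 0.494%) in PANDORA-seq, where 84.99% ± 4.494 ended after CC. For mt-Tm the complete CCA was present in 47.6% ± 20.3 and in 0.176% ± 0.0837, with 50.8% ending after CC and 47.5% after C in PANDORA-seq. For mt-Ti it was present in 53.0% ± 20.9 in traditional-seq and in 0 of the 3′ fragments of any PANDORA-seq library, where 54.3% ended after CC and 41.6% after C. The other 15 mitochondrial tRNAs with enough reads showed complete CCA on 0 to 2.83% of 3′ fragments in PANDORA-seq (median 0.199%) and on 11.5 to 95.2% in traditional-seq (median 58.4%), so the 3 tRNAs lay within the range of the others in each protocol. Elsewhere than at the CCA, reads ending in A were present in both protocols, with shares that differed. Over the sequences of the whole libraries with at least 5 reads in at least 7 PANDORA-seq or 6 traditional-seq libraries, 7.26% ± 2.24 (n = 16) of reads ended in A in PANDORA-seq, against 14.8% ± 1.43 (n = 14) in traditional-seq. Of the 5′ and internal fragments 21.1% of mt-Tm and 16.3% of mt-Ti ended in A in PANDORA-seq, against 8.68% and 17.7% in traditional-seq, while for mt-Tq the share was 3.99% against 16.8%. Which step of the treatment, ligation or trimming the missing A goes with was not tested.

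To compare AD with WT, reads were first summed over each RNA and fitted with edgeR's quasi-likelihood test over all RNAs. A call needed a fold change over 2 as well as a Benjamini-Hochberg adjusted p under 0.05. In PANDORA-seq mt-Tq was lower in AD, with a log2 fold change of -1.17 (SE 0.28, adjusted p = 0.0167), or 2.24-fold. Its mean fell from 612 RPM ± 217.5 (SD, n = 8) to 278 ± 115. Its neighbours were not called, with log2 fold changes of -0.14 (SE 0.26, adjusted p = 0.845) for mt-Ti and -0.16 (SE 0.21, adjusted p = 0.771) for mt-Tm. Of all 1103 RNAs tested 43, or 3.9%, were lower and 5 higher. In these bulk samples fewer cells of a type and less RNA per cell cannot be told apart. Without WT replicate 3, the highest WT library, the log2 fold change of mt-Tq was -0.9955 (adjusted p = 0.0434), just under the fold limit. With the replicate block it was -1.13 and with library totals alone in place of TMM scaling -1.14, both past the fold limit but not the adjusted p (0.0775 and 0.0756). Over reads of 15 to 42 nt only it was -0.29 (adjusted p = 0.71), so the call rests on the reads of 43 to 45 nt.

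The other light-strand-coded tRNAs and the flanking mRNAs were not called. Whether the mRNAs differed from mt-Tq was not tested. The light-strand-coded tRNAs were compared with mt-Tq only among the ratios between all mitochondrial tRNAs that are counted below. Of the other 7 light-strand-coded tRNAs 0 were called, with log2 fold changes from -0.53 to 0.54 and a median of -0.13. Of the 12 other heavy-strand-coded tRNAs 1, mt-Th, was called lower (-1.32), and their median was -0.14. Among them mt-Tl1 passed the adjusted p but not the fold limit (-0.69, SE 0.18, edgeR adjusted p = 0.0323). The fragments of mt-Nd1 and mt-Nd2, subunits of respiratory complex I, had log2 fold changes of 0.07 and 0.34 (adjusted p = 0.919 and 0.661). Taken within libraries and over all lengths, the ratio of mt-Tq to mt-Ti went from 48.4 in WT to 25.7 in AD. That of mt-Tq to mt-Tm went from 3.15 to 1.61. The log2 differences were -0.92 and -0.97. These had an unadjusted p of 0.0146 and 0.0162 by exact permutation but did not pass when adjusted over all 462 ratios (adjusted p = 0.172 and 0.175). Of all these ratios 17 passed in PANDORA-seq, 2 of them with mt-Tq, and 0 in traditional-seq. Without AD replicate 1 the ratios of mt-Tq to mt-Ti and to mt-Tm passed, at log2 differences of -1.12 and -1.18 (exact permutation, adjusted p = 0.0359 and 0.0460). Without any 1 of the other 15 libraries neither passed, at an adjusted p of up to 0.299 and 0.293 by exact permutation. The ratio of mt-Tm to mt-Ti was 15.4 in WT and 15.96 in AD. Over all lengths the AD minus WT difference of log2 RPM was -1.19 for mt-Tq, -0.27 for mt-Ti and -0.21 for mt-Tm. Over 15 to 42 nt it was -0.46, -0.11 and -0.36. Without the longest reads mt-Tq thus lay closer to both neighbours, so the falls of its ratios rest largely on those reads.

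In traditional-seq none of the 3 tRNAs was called, nor was any of the 666 RNAs tested (0%), with 10 RNAs at an unadjusted p under 0.05. The log2 fold changes were 0.19 (SE 0.27) for mt-Tq, 0.02 (SE 0.24) for mt-Ti and -0.63 (SE 0.42) for mt-Tm, each with an adjusted p of 0.996. None of the 3 had an unadjusted p under 0.05, and none was called by the likelihood ratio test or DESeq2. In mt-Tm the spread was wide, from 32.4 to 339 RPM in WT. The AD minus WT difference of log2 RPM for mt-Tq differed between the protocols by -1.335, PANDORA-seq minus traditional-seq (-1.19 and 0.15; permutation of genotype labels within protocols, p = 0.00603, adjusted p = 0.0362 over 6 comparisons), a test added after the data were seen. Over 15 to 42 nt the same difference was -0.61 (permutation, p = 0.131). For mt-Ti and mt-Tm the differences between protocols over all lengths were -0.24 and 0.25 (permutation, p = 0.582 and 0.674).

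Fragment type and length were then separated. The length classes were set with earlier results of these data on reads of 43 to 45 nt known. The calls by length are thus not independent of those results. Each RNA's reads were divided into 5′, internal and 3′ fragments of 15 to 30, 31 to 42 and 43 to 45 nt, and all 2533 classes that passed the filter were fitted together. Of these 320, or 12.6%, were lower in AD and 54 higher. Of the 26 classes of the 3 tRNAs 6 were lower and 0 higher, and the 6 were all of 43 to 45 nt. Among 43 to 45 nt classes 6 of 8 of the 3 tRNAs, 30 of 35 of the other 19 mitochondrial tRNAs and 310 of all 490 (63.3%) were lower, with median log2 fold changes of -2.53, -2.60 and -1.89. Among classes of 15 to 30 nt 0 of 9 and among those of 31 to 42 nt 0 of 9 of the 3 tRNAs were called (1 of 1167 and 9 of 876 of all), and 1 of these 18 had an unadjusted p under 0.05. Over all RNAs together, most of the long classes tested were therefore lower in AD. The filter on low counts can be met by either genotype alone, so long classes scarce in AD could enter through WT, where long reads were more common. How far this raised the share of long classes called lower was not tested.

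The 3′ fragments of mt-Tq of 43 to 45 nt made up most of the difference in its total. They stood at 76.3 RPM in the lowest WT library, 361 in the median and 570 in the highest, and at 3.31, 16.5 and 117 RPM in AD. Most AD libraries lay below every WT library, but the highest AD library reached above the lowest WT library. The log2 fold change was -3.15 (SE 0.60, edgeR adjusted p = 0.000986). The 5′ fragments of mt-Tq of these lengths fell from 4.85 RPM ± 2.57 (SD, n = 8) to 0.398 ± 0.305, a log2 fold change of -3.47 (SE 0.45, adjusted p = 5.49e-05), with no overlap between genotypes. Its internal fragments fell from 2.40 to 0.286 RPM (-2.95, adjusted p = 0.000378).

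In mt-Ti the long 3′ fragments fell from 2.13 RPM ± 1.31 (SD, n = 8) to 0.230 ± 0.302 (-3.13, SE 0.60, edgeR adjusted p = 0.00102) and the long internal fragments from 0.454 to 0.127 RPM (-1.66, adjusted p = 0.0113). In mt-Tm the long 3′ fragments fell from 3.01 RPM ± 2.17 to 0.676 ± 0.808 (-2.10, SE 0.65, adjusted p = 0.0316), a call that was lost, at an adjusted p of up to 0.0768, when any of 9 of the 16 libraries was left out (WT replicates 2, 3, 5 and 8 and AD replicates 2, 3, 4, 5 and 7). The long 5′ fragments of mt-Tm had a log2 fold change of -0.99 (SE 0.29, adjusted p = 0.0234), just under the fold limit, and the long internal ones of -0.62 (adjusted p = 0.169). The 5′ class was called without any 1 of 6 libraries (WT replicates 4, 6 and 7 and AD replicates 5, 6 and 8), and its log2 fold change ran from -1.18 to -0.92 when 1 library was left out. The long 5′ class of mt-Ti did not pass the filter on low counts. The 6 called classes thus come from all 3 tRNAs, and reads of these lengths made up 51.5% of mt-Tq reads in WT, 23.4% of mt-Ti reads and 2.99% of mt-Tm reads.

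Each length class was next scaled by all reads of its lengths in each library, which takes out a fall in their total. Of the 8 long classes of the 3 tRNAs 4 were then called lower and 0 higher. By the same scaling 11 of 35 long classes of the other 19 mitochondrial tRNAs (31.4%) and 108 of all 490 (22.04%) were lower. In the same 2 groups 1 and 43 were higher. The medians were -1.19 and -0.55, against -1.255 for the 3 tRNAs, and whether these differ was not tested. The filter on low counts was left as it was, so long classes scarce in AD could still enter through WT. The values for mt-Tq were -1.88 for 3′ (edgeR adjusted p = 0.00896), -2.06 for 5′ (adjusted p = 0.000699) and -1.63 for internal fragments (adjusted p = 0.00716). The long 3′ fragments of mt-Ti were also still called (-1.86, adjusted p = 0.0111). The long internal fragments of mt-Ti (-0.08, adjusted p = 0.975) and the long 3′ fragments of mt-Tm (-0.88, adjusted p = 0.514) were not. The long 5′ and internal fragments of mt-Tm turned to values above 0 with this scaling (0.62 and 1.05, adjusted p = 0.428 and 0.0798). The median over all classes was 0.22 with TMM scaling and -0.06 with this scaling.

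**Figure D4:**
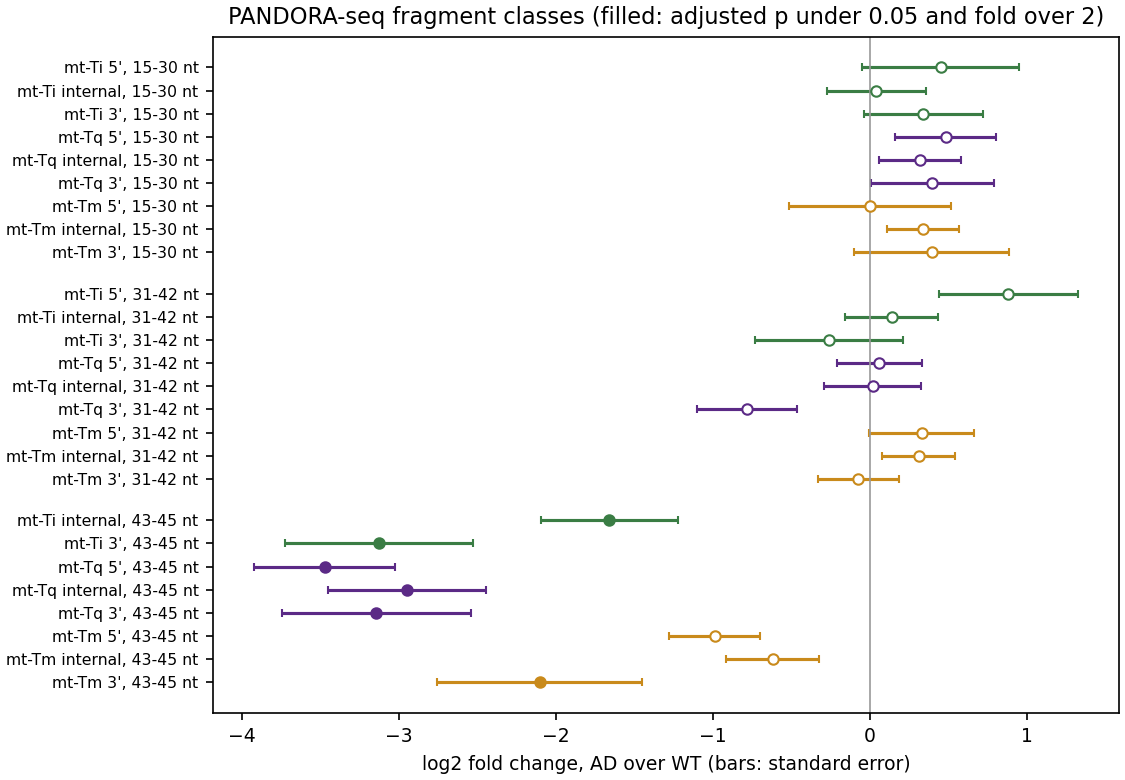
Log2 fold change of AD over WT in PANDORA-seq (x axis, bars of 1 standard error) for each fragment type and length class of mt-Ti (green), mt-Tq (purple) and mt-Tm (yellow) that passed the filter, with filled points for classes called lower. Classes of 15 to 42 nt lie between -0.78 and 0.88 with open points, and the filled points are all of 43 to 45 nt, from -3.47 to -1.66.

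The classes of 31 to 42 nt, which PANDORA-seq and traditional-seq share, held no call. The 3′ fragments of mt-Tq there stood at 55.7 RPM ± 15.8 (SD, n = 8) in WT and 29.2 ± 17.1 in AD, with a log2 fold change of -0.78 (SE 0.32, edgeR adjusted p = 0.104). Its 5′ fragments stood at 118 RPM ± 28.4 in WT and 111 ± 54.0 in AD (0.06, adjusted p = 0.909). The same class in mt-Tm, which holds most mt-Tm reads, stood at 121.1 RPM in WT with a log2 fold change of -0.07 for its 3′ fragments (adjusted p = 0.876). In traditional-seq 0 of the 14 classes of the 3 tRNAs and 0 of all 933 (0%) were called, with 6 of all and none of the 14 at an unadjusted p under 0.05. DESeq2 called none of the 14 either.

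The ratio of WT to AD in mt-Tq 3′ fragments was higher at each length step from 40 to 45 nt. Among those that ended after CC, at base 73, mean WT and AD levels were 1.78 and 1.53 RPM at 40 nt, a ratio of 1.17. The ratio of WT to AD was 1.62 at 41 nt, 2.30 at 42 nt, 4.11 at 43 nt, 11.1 at 44 nt and 38.5 at 45 nt. Single AD libraries weighed on these ratios, which became 6.67 at 43 nt and 16.8 at 44 nt without AD replicate 1 and 60.3 at 45 nt without AD replicate 6. All reads of the libraries gave 0.999, 1.06, 1.33, 2.04, 3.76 and 3.78 at these lengths, and reads of the other 19 mitochondrial tRNAs gave 1.03, 1.55, 2.33, 4.61, 9.91 and 24.4. The 3′ fragments of mt-Tm went from 0.865 at 40 nt to 7.496 at 45 nt. The 5′ fragments of mt-Tq went from 0.925 to 20.6 over the same lengths, so fragments from both of its ends followed the rise. With levels taken as shares of all reads of the same length, the ratio for mt-Tq fragments ending after CC was 1.18 at 40 nt and 12.03 at 45 nt, against 7.73 at 45 nt for the other 19. On this scale the ratio at 45 nt was 5.27 for mt-Tq 5′, 7.24 for mt-Ti 3′, 2.34 for mt-Tm 3′ and 1.07 for mt-Tm 5′ fragments, so it was above that of the other 19 in mt-Tq 3′ fragments and below it in these, a contrast that was not tested. Because the fragments end at 1 base, each length step is also a step of the first base from 34 to 29, and length and first base cannot be told apart among them.

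**Figure D5:**
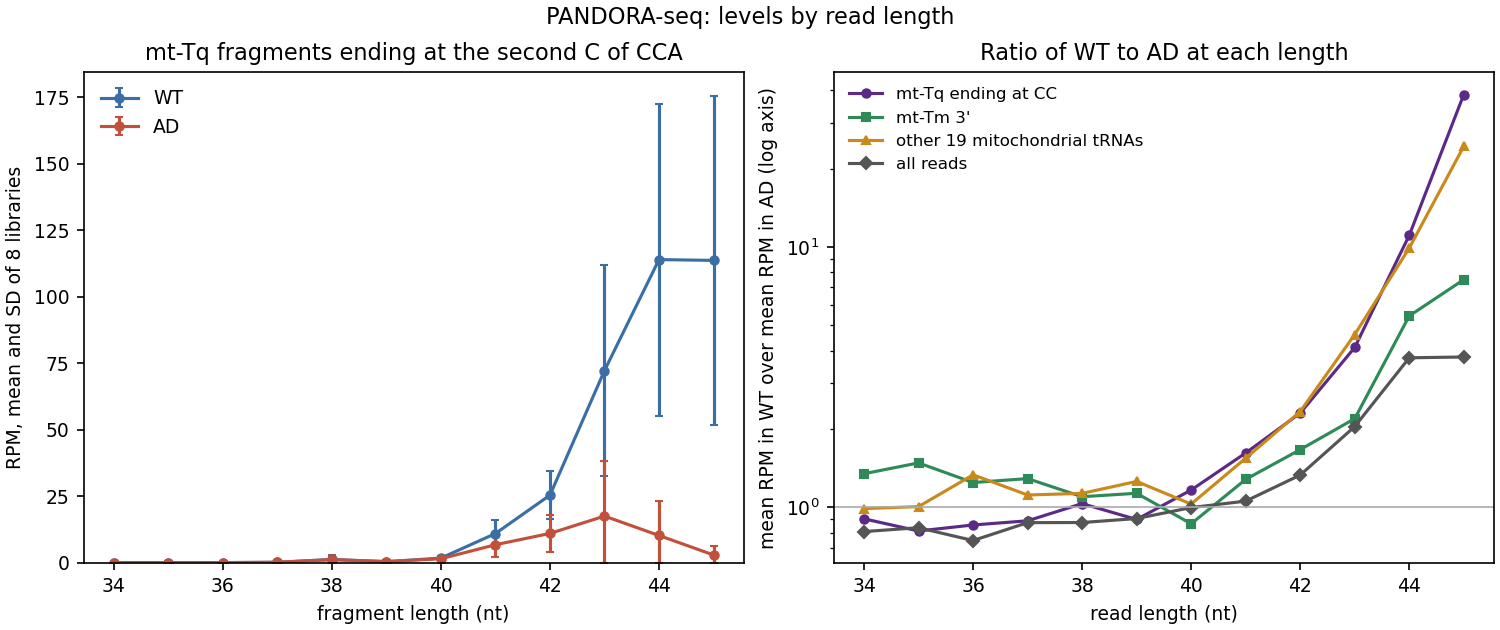
Left, mean RPM with SD over 8 libraries of mt-Tq fragments that end after CC, by length in nt, in blue for WT and red for AD. Right, the ratio of mean RPM in WT to that in AD (log axis) by read length for these fragments, the 3′ fragments of mt-Tm, the other 19 mitochondrial tRNAs and all reads, where the mt-Tq line climbs from 1.17 at 40 nt to 38.5 at 45 nt and the line of all reads to 3.78.

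Single sequences gave the same picture. Of the 23673 distinct sequences tested in PANDORA-seq 1103, or 4.66%, passed as lower in AD, while 38 passed as higher. Of the tested sequences of mt-Tq 10 of 159 were lower, of mt-Tm 3 of 108, of mt-Ti 1 of 13, and none was higher. In the other 19 mitochondrial tRNAs 145 of 2047 were lower. When each length was scaled by its own reads, 5 of the 14 calls remained (mt-Tq 29 to 73, 30 to 73, 29 to 72 and 1 to 45 and mt-Ti 26 to 70). In that scaling 5 of the 280 tested sequences of the 3 tRNAs (1.79%) were lower, beside 61 of 2047 (2.98%) in the other 19 mitochondrial tRNAs and 380 of all 23673 (1.61%). Among sequences of 43 to 45 nt the counts were 5 of 17 (29.4%), 48 of 164 (29.3%) and 318 of 2171 (14.7%), and whether these shares differ was not tested. In these groups of long sequences 0, 0 and 74 were called higher. With library scaling, 8 of the 10 mt-Tq sequences of 43 to 45 nt and 2 of the 149 shorter ones were called, and the median log2 fold change of the shorter ones was 0.08. At 43 to 45 nt 119 of 164 sequences of the other 19 mitochondrial tRNAs (72.6%) and 992 of all 2171 (45.7%) were called lower as well, against 26 of 1883 (1.38%) and 111 of 21502 (0.516%) of the shorter ones. The filter left out most distinct sequences, all of them scarce. A long sequence scarce in AD could pass it through WT alone, which can raise these counts of long sequences called lower. For example mt-Ti 26 to 70 had a median of 1.04 RPM in WT and 0.0121 RPM in AD. The count of 14 over the 3 tRNAs became 9 without WT replicate 1, 2 or 8 and 22 without AD replicate 1.

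The sequence with the largest fall was mt-Tq 29 to 73, the 45-nt fragment that begins 4 bases before the anticodon. As 45 nt is the longest read length, no read with this last base could begin earlier. It stood at 125, 125, 212, 58.4, 66.6, 121.4, 25.4 and 175 RPM in WT replicates 1 to 8 and at 4.83, 0.838, 0.765, 2.16, 1.19, 10.4, 1.13 and 2.30 RPM in AD replicates 1 to 8. Every WT library lay above every AD library, and AD replicate 6 was the highest of AD. The log2 fold change was -5.31 (SE 0.58, edgeR adjusted p = 1.07e-05), and it was -3.59 (adjusted p = 0.000434) when each length was scaled by its own reads. The fragment 1 base shorter at its 5′ end, mt-Tq 30 to 73, stood at 114 RPM ± 58.6 (SD, n = 8) in WT and 10.3 ± 13.1 in AD, with an overlap between genotypes (-3.52, adjusted p = 0.00216, and -1.96, adjusted p = 0.0247, with the length scaling). The fragment mt-Tq 29 to 72, which lacks the second C, fell from 12.1 to 0.593 RPM without overlap (-4.40, adjusted p = 7.82e-05, and -2.59, adjusted p = 0.00471, with the length scaling). A 2-base shift of the first base, in mt-Tq 31 to 73, left 72.3 RPM in WT and 17.6 RPM in AD (-2.04, adjusted p = 0.0488), a call that was lost, at an adjusted p of up to 0.103, without any 1 of 13 libraries (all but WT replicates 4 and 7 and AD replicate 1). The shorter called sequences were mt-Tq 29 to 63, of 35 nt, at 9.51 RPM in WT and 3.66 in AD (-1.38, adjusted p = 0.0318), and mt-Tq 30 to 45, of 16 nt (-1.57, adjusted p = 0.0410). Their calls were lost without any 1 of 10 libraries (all but WT replicates 4, 6 and 7 and AD replicates 1, 5 and 6) and any 1 of 13 (all but WT replicate 7 and AD replicates 1 and 6).

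From the 5′ end, mt-Tq 1 to 45 fell from 2.98 RPM ± 1.70 (SD, n = 8) to 0.138 ± 0.0868, again without overlap (-4.35, SE 0.47, edgeR adjusted p = 1.01e-05, and -2.45, adjusted p = 0.00224, with the length scaling). The most abundant 5′ fragment, mt-Tq 1 to 42, is 3 bases shorter and stood at 28.9 RPM in WT and 16.7 RPM in AD with overlapping ranges (-0.79, adjusted p = 0.329). In mt-Ti the called sequence was the 45-nt fragment 26 to 70, which fell from 1.11 RPM ± 0.783 to 0.0456 ± 0.0748 without overlap (-4.58, SE 0.73, adjusted p = 0.000405, and -2.98, adjusted p = 0.00995, with the length scaling). It begins 4 bases before the anticodon as mt-Tq 29 to 73 does. Both fragments are at the length limit of 45 nt, so no read with these last bases could begin earlier. In mt-Tm the called sequences were 27 to 71, 26 to 70 and 27 to 70, with WT means of 0.560 to 0.834 RPM, of which 27 to 71 had the largest change (-3.64, adjusted p = 0.00138, and -2.02, adjusted p = 0.0979, with the length scaling). The calls of mt-Tm 26 to 70 and 27 to 70 were lost, at an adjusted p of up to 0.0635 and 0.0973, when any 1 of 6 libraries (WT replicates 1, 2 and 8 and AD replicates 2, 3 and 4) or any 1 of 11 (all but WT replicates 4, 6 and 7 and AD replicates 1 and 6) was left out. These 3 fragments are printed for comparison of where they begin and end, with the anticodon and added bases in capitals:
mt-Ti 26 to 70: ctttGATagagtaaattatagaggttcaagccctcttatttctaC
mt-Tm 27 to 71: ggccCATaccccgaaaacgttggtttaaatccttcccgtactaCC
mt-Tq 1 to 42: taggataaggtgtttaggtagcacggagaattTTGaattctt

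In traditional-seq 0 of the 96 tested sequences of the 3 tRNAs (50 of mt-Tq, 24 of mt-Tm and 22 of mt-Ti) and 0 of all 4895 (0%) were called. Of all of them 28 had an unadjusted p under 0.05, and none of these belonged to the 3 tRNAs. The likelihood ratio test and DESeq2 called none of the 96. Of the mt-Tm sequences 22 of 24 had a log2 fold change below 0, with a median of -0.53.

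Shares within each tRNA, which do not depend on library totals, were compared over the mitochondrial tRNAs with at least 100 reads in every library. In PANDORA-seq 3′ fragments made up 60.0% ± 10.8 (SD, n = 8; 44.1 to 75.3%) of mt-Tq reads in WT and 21.7% ± 13.2 (8.58 to 44.3%) in AD, a difference of -38.4 percentage points (two-sided exact permutation test, adjusted p = 0.00799 over 180 comparisons). Only the lowest WT and the highest AD library met. The 5′ share rose from 24.3% to 44.5% (exact permutation, adjusted p = 0.0336) and the internal share from 15.7% to 33.9% (exact permutation, adjusted p = 0.00799). The mean levels themselves were not higher in AD, and 5′ fragments of all lengths stood at 132 RPM ± 32.1 (SD, n = 8) in WT and 124 ± 59.96 in AD and internal ones at 94.5 ± 32.8 and 89.8 ± 40.6 RPM. Reads of 43 to 45 nt made up 51.5% ± 12.4 of mt-Tq in WT and 11.5% ± 11.5 in AD (exact permutation, adjusted p = 0.00799). For mt-Ti this length share went from 23.4% to 4.45% (exact permutation, adjusted p = 0.0260), and the call was lost, at an adjusted p of up to 0.0646, without any 1 of 7 AD libraries (all but replicate 6). For mt-Tm it went from 2.99% to 1.18% (exact permutation, adjusted p = 0.142). The 3′ share of mt-Tm was 76.3% in WT and 72.9% in AD (exact permutation, adjusted p = 0.549).

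Set beside the 20 mitochondrial tRNAs compared, the share of 43 to 45 nt reads was lower in 12 of them, and the 3′ share in 2, of which mt-Tq is 1. Over 15 to 42 nt the 3′ share of mt-Tq differed by -8.26 percentage points and did not pass (exact permutation, adjusted p = 0.0870). The rise of its 5′ share was lost without any 1 of 11 libraries (all but WT replicates 1, 4 and 7 and AD replicates 1 and 6), at an adjusted p of up to 0.0659 by exact permutation. In traditional-seq none of the shares of the 3 tRNAs passed (exact permutation, adjusted p of 1 for each fragment type), and the mt-Tq 3′ share was 11.5% ± 6.02 in WT and 9.02% ± 6.16 in AD.

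Over the 16 PANDORA-seq libraries the RNAs whose log2 (RPM + 1) was most like that of mt-Tq, among 1102, were mt-Tl1 (Pearson r = 0.919), Gm24494 (0.859) and Gm26467 (0.856). For mt-Ti they were mt-Co3 (0.909), mt-Tc (0.891) and Gm22571 (0.876), and for mt-Tm Snord80 (0.851), Mir592 (0.845) and Gm26247 (0.817). Between the members r was 0.788 for mt-Ti and mt-Tm, 0.560 for mt-Tq and mt-Ti and 0.442 for mt-Tq and mt-Tm. These values describe the same libraries and share their totals and genotypes.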

How the data were processed

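Small RNA reads of 15 to 45 nt (PANDORA-seq, 16 libraries) or 15 to 42 nt (traditional-seq, 14 libraries) were deposited as tables of distinct sequences with their read counts, and the deposited counts are whole reads without normalization by the authors or unique molecular identifiers. The p-values cover the spread between libraries, which the labels call biological replicates. The submitters' processing notes name the build mm39, but positions here come from an exact match to GENCODE M21 transcripts (GRCm38) with CCA added. The members, the gene lists and the length classes were chosen with earlier results of these data known.

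Counts per RNA, fragment class and sequence were fitted over all features with edgeR 4.0.16 (quasi-likelihood test, TMM, filterByExpr with a smallest count of 10 and total of 15, genotype as the only term), separately in each protocol. Features with a Benjamini-Hochberg adjusted p under 0.05 and a fold over 2 were called. The SE given with an edgeR fold change is its absolute log2 value divided by the square root of the test's F statistic. The likelihood ratio test and DESeq2 1.42.0 were alternatives. Ratios and RPM were compared on the log2 scale with a pseudocount of 0.5 reads. Genotypes were compared by two-sided exact permutation over 12870 splits of 8 against 8 libraries (smallest p 0.0001554) or 3432 splits of 7 against 7 (0.0005828), and protocols by 100000 shuffles, whose smallest p is 1e-05. Shares needed 100 reads in every library. Other alternatives were other scalings, no filter, reads of 15 to 42 nt, 1 mismatch added, the replicate block and leaving out each library. Named sequences were the most abundant of each fragment type, tRNA and protocol and the 3 called ones with the smallest adjusted p for each tRNA, and the other called sequences were named after their values were seen. The edgeR quasi-likelihood test, the exact permutation of means, the shuffles and the sign flips were checked on simulated data. The simulated counts held no shared fall of long reads, and the other tests and scalings were not checked this way. R 4.3.3, Python 3.11.15, numpy 2.4.6, pandas 2.3.3 and matplotlib 3.10.9 were used.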

Additional observations from a re-analysis of the deposited data

Results flagged for a closer look

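In 66 groups of 7 or 8 libraries, 8 had 1 library far from the others by Dixon's test, where chance gives about 1 in 20. In PANDORA-seq, WT replicate 7 had 63.88% of mt-Ti reads as 3′ fragments (30.95 to 43.68% in the other WT libraries), and AD replicate 4 had 352.1 RPM of mt-Tm (76.19 to 199.6 RPM in the other AD libraries). AD replicate 6 held 0.935 RPM of long mt-Ti 3′ fragments (0.0243 to 0.280 RPM in the others) and 1.008 RPM of long internal mt-Tq fragments (0.0364 to 0.462 RPM). AD replicate 5 had 8.3% of mt-Tm reads as 5′ fragments (1.795 to 4.732%). In traditional-seq, WT replicate 2 had 339.4 RPM of mt-Tm (32.44 to 152.7 RPM), AD replicate 4 had 32.55% of mt-Tq reads as 5′ fragments (12.33 to 21%) and AD replicate 2 had 18.22% of mt-Tm reads as 5′ fragments (3.667 to 9.361%).

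The AD minus WT difference of mt-Tq differed between the protocols by -1.335 on the log2 scale over all lengths (permutation, p = 0.00603), a test added after the data were seen. Only PANDORA-seq holds reads of 43 to 45 nt, and over 15 to 42 nt the difference was -0.61 (permutation, p = 0.131).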

How the results depend on the processing

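Of 1538 alternative values for 81 results, 1352 kept their direction and side of the threshold or stayed within the limit set for counts and ratios, 122 were no longer past the threshold, 15 newly passed it, 20 counts or ratios moved, and 29 changed sign, none of them called in either setting. The mt-Tq total in PANDORA-seq was -1.136 with library totals alone (adjusted p = 0.0756), -1.133 with the replicate block (0.0775) and -0.2927 over 15 to 42 nt (0.71), and -1.338 to -0.9955 with 1 library left out, where it was not called without WT replicate 3. Of the 6 fragment classes called lower, 0 were over 15 to 42 nt, a setting that leaves out all their reads, which are of 43 to 45 nt. The 14 sequences called lower became 9 with library totals alone, 32 with no filter, 0 over 15 to 42 nt, 5 with each length scaled by its reads and 9 when all distinct sequences were fitted, with 9 to 22 when 1 library was left out, and the 0 called higher became 2 with no filter. As 12 of the 14 are of 43 to 45 nt, only the other 2 could stay called over 15 to 42 nt. Over all lengths the ratio of mt-Tq to mt-Ti differed by -1.122 to -0.7566 and that to mt-Tm by -1.178 to -0.848 when 1 library was left out. With 1 library left out, a setting added after the data were seen, the WT to AD ratio of mt-Tq reads ending after CC was 3.64 to 6.67 at 43 nt, 9.81 to 16.8 at 44 nt and 33.8 to 60.3 at 45 nt. The mt-Tq 3′ share differed by -8.258 points over 15 to 42 nt. The mt-Tq level in PANDORA-seq minus traditional-seq was 0.8874 over all lengths, 1.81 per mitochondrial tRNA read and 0.7137 in WT alone. These shifts' causes were not tested beyond what each setting leaves out. Sign changes were found in the following values. With each length class scaled by its reads, long mt-Tm 5′ and internal fragments came to 0.6206 and 1.049. The mt-Tq 5′ fragments of 31 to 42 nt came to -0.05252 by DESeq2, -0.05258 with its size factors, -0.08392 with library totals alone, -0.06145 with no filter, -0.03121 with the replicate block, -0.2287 over 15 to 42 nt and -0.234 with length scaling. Over 15 to 42 nt the mt-Ti total came to 0.1169, the ratio of mt-Tm to mt-Ti to -0.2501 and the mt-Ti 3′ share to 0.7221 points. In traditional-seq the mt-Ti total came to -0.0324 with library totals alone and -0.00377 with the replicate block, and the ratio of mt-Tq to mt-Ti to -0.0995 by medians. With 1 library left out, PANDORA-seq ranges that crossed 0 were -0.2215 to 0.02569 for mt-Tm 3′ and -0.122 to 0.1774 for mt-Tq 5′ fragments of 31 to 42 nt, -0.2919 to 0.001527 for the mt-Ti total and -0.07741 to 0.2027 for the ratio of mt-Tm to mt-Ti. In traditional-seq they were -0.03863 to 0.107 for the mt-Ti total, -0.5644 to 0.1447 points for the mt-Ti 3′ share and -4.968 to 0.9055 points for the mt-Tq 5′ share.

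Same-numbered WT and AD libraries correlated at -0.430 to 0.377 in PANDORA-seq and -0.467 to 0.483 in traditional-seq, and 1 of 8 and 0 of 7 correlated best with their own number. These correlations cannot tell whether same-numbered libraries share anything beyond the number. With the replicate block 6 fragment classes of the 3 tRNAs were called lower. Reads of 43 to 45 nt cannot be compared with traditional-seq, and mt-Ti passed the filter with only 13 sequences in PANDORA-seq.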

Other observations

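Relative to sense reads, antisense reads were most common for mt-Ti in both protocols. In traditional-seq 2679 reads ran antisense to mt-Ti, 16.02% of its sense reads, at 18.5 RPM ± 11.5 (SD, n = 7) in WT and 12.98 ± 9.397 in AD. For mt-Tq 1022 reads, or 2.87%, and for mt-Tm 10 reads, or 0.0612%, ran antisense. In PANDORA-seq mt-Tq had the most antisense reads, 1298 against 409 for mt-Ti and 146 for mt-Tm, but the shares of sense reads were 2.63% for mt-Ti, 0.220% for mt-Tq and 0.0630% for mt-Tm.

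Mismatches, counted in reads of 20 to 42 nt at bases with at least 50 reads in every library, can mark modified bases or reading errors. In PANDORA-seq the mismatch share was lower than in traditional-seq at 5 of 18 bases of mt-Ti, 18 of 55 of mt-Tq and 12 of 58 of mt-Tm, and higher at 0, 5 and 6 (permutation, adjusted over 714 bases of all 22 mitochondrial tRNAs). Over all 22 it was lower at 35.9% of the 714 bases and higher at 9.94%, so the shares of the 3 tRNAs lay near or below those of the whole. No base passed the test between genotypes. With mismatches at least 3 bases inside the read, a setting chosen after the data were seen, fewer bases were measured, and the share was lower at 2 of 10, 2 of 36 and 0 of 28 and higher at 0, 4 and 1, beside 115 lower (21.5%) and 55 higher (10.3%) of the 536 bases of all 22. In this setting mt-Tq base 25 was at 1.46% ± 0.213 (SD, n = 16) in PANDORA-seq against 0.582% ± 0.401 (n = 14), and base 33, the first of the anticodon, at 1.26% ± 0.230 against 0.230% ± 0.320, both higher at an adjusted p of 0.000112 by permutation.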
